A study of Mus musculus with 2 samples.

Results

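Toll-like receptors (TLRs) and their adaptors were followed in the immune cells of mouse dorsal root ganglia (DRG), the clusters of sensory neuron cell bodies beside the spinal cord. The set was given as a list of 10 genes out of the 16819 gene symbols in the expression matrix. It holds 7 receptors (Tlr1, Tlr2, Tlr3, Tlr4, Tlr7, Tlr9 and Tlr13), the co-receptors Cd14 and Ly96, and the adaptor Myd88. CD45+ DAPI- cells, the living leukocytes, had been sorted after enzymatic digestion of the ganglia. The study names pooled cervical, thoracic and lumbar ganglia for flow cytometry and gives no spinal level for the sequenced cells. All mice were naive WT BALB/cAnNRj animals, 7 wk or older by the bound set for mice in this work, and no group was treated. The cells of 3 male and 3 female mice carried hashtag antibodies (oligonucleotide-tagged antibodies that mark the animal of origin) and ran in a single 10x lane. The filtered matrix held the male mice, on which the results rest, and 1073 cells of the female mice served as a repeat.

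TLRs recognize conserved microbial molecules and nucleic acids and are a main route by which macrophages, neutrophils and dendritic cells sense infection and tissue damage. Tlr1, Tlr2 and Tlr4 act at the cell surface, where Tlr1 pairs with Tlr2 to read bacterial lipopeptides and Tlr4 reads lipopolysaccharide with the help of Ly96 (MD-2) and Cd14. Tlr3 (double-stranded RNA), Tlr7 (single-stranded RNA), Tlr9 (unmethylated CpG DNA) and Tlr13 (bacterial ribosomal RNA) act in endosomes, and every one of these receptors except Tlr3 signals through Myd88 to NF-kB and interferon regulatory factors.

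Promoter sequence was at hand for 6 of the 10 genes in RefSeq (GRCm38.p6, 250 bases before to 50 after a RefSeq start). It was searched on both strands for an NF-kB motif, GGGNNTTNCC, and for an interferon-stimulated response element (ISRE), GAAANNGAAA, which do not overlap in these windows. Among 32851 promoters of the same length, 4.79% held the NF-kB letters and 3.44% the ISRE letters. The promoters shown are those of the 3 members with a match, which is set in capitals. They lie at chr3:83841559-83841858 (Tlr2), chr8:45410331-45410630 (Tlr3) and chr9:119339969-119340268 (Myd88), each read on the minus strand.
Tlr2: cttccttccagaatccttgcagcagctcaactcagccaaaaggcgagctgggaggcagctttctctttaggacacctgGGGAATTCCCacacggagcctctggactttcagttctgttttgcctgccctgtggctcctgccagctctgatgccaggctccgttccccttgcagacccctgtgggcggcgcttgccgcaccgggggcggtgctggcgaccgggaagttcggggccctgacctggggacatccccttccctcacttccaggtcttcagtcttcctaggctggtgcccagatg
Tlr3: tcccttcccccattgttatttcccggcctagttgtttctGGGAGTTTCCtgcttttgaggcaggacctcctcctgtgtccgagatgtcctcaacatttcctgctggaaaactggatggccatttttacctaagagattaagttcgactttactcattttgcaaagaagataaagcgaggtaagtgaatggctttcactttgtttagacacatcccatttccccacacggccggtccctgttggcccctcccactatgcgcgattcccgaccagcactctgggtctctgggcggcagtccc
Myd88: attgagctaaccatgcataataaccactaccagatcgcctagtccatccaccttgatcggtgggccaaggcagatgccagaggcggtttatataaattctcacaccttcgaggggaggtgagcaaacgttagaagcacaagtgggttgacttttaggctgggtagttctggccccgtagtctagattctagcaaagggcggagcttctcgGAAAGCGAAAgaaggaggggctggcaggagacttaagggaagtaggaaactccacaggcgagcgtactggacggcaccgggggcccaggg
The NF-kB match began 172 bases before the start in Tlr2 and 211 bases before it in Tlr3, and the ISRE match of Myd88 began 40 bases before it. The promoters of Tlr1, Tlr9 and Tlr13 held neither run of letters. A match is a run of letters, and binding at these positions was not measured.

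Cell types were set by fixed gates on the UMIs (counted RNA molecules) of genes outside the set. A macrophage had C1qa, C1qb and C1qc at or over 0.5% of its UMIs, and a neutrophil had S100a8 and S100a9 at or over 5%. A B cell had at least 4 UMIs of Cd79a and Cd79b, a cDC1 at least 2 of Xcr1 and Clec9a, and a cDC2 at least 3 of Cd209a with C1q under the macrophage gate. Gates for monocytes (Ly6c2 with Ccr2), for T or NK cells and for plasmacytoid dendritic cells were added. The gates held 1476 macrophages (55.3% of the cells), 555 neutrophils, 162 B cells, 44 cDC1, 51 cDC2, 108 monocytes and 86 T or NK cells, and 8 plasmacytoid cells were too few to test. Each male mouse gave cells to every tested type, from 5 cDC1 in mouse 1 to 775 macrophages in mouse 3. Marker genes that the gates did not use had at least 1 UMI in their own type (6 of 6 macrophage markers, 6 of 6 neutrophil markers and 5 of 5 B cell markers). This bar is low, since all 6 macrophage markers also met it in neutrophils and all 6 neutrophil markers met it in macrophages. Macrophage markers took 0.281 to 0.290% of UMIs in macrophages and 0.0032 to 0.0090% in neutrophils. Neutrophil markers took 2.39 to 3.23% in neutrophils and 0.011 to 0.012% in macrophages. The cDC1, monocyte and T or NK lists were highest in their own type. The B cell list took more in macrophages (2.76 to 3.78%) than in B cells (0.973 to 1.13%). The cDC2 list took more in B cells (0.110 to 0.149%) than in cDC2 (0.057 to 0.066%). Ptprc, the gene of CD45, had a UMI in 78.0 to 87.2% of the cells of a mouse.

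The 3 male mice gave 4239463, 5656097 and 13508078 UMIs from 481, 772 and 1415 cells (mouse 1, 2 and 3). Levels are given as CPM, counts of a gene divided by all counts of a mouse and cell type, with edgeR's constant multiplier and TMM factors, with mice always in the order 1, 2 and 3. The TMM factors were 0.600, 0.618 and 0.525 for neutrophils and 0.905, 0.903 and 0.956 for macrophages. Counts are divided by these factors too, so the scaling raised neutrophil levels more than macrophage levels. Differences are log2 fold changes with their standard errors (SE), from the quasi-likelihood test of edgeR with p adjusted after Benjamini and Hochberg over every gene tested, and a gene was called at an adjusted p under 0.05. Members differed widely in counts, from 14 UMIs of Tlr9 in 14 cells to 88814 UMIs of Cd14 in 2286 cells, so a low share of positive cells is set by depth as well as by expression. Across cell types, 7 of the 10 genes passed the filter on low counts, and Tlr1, Tlr4 and Tlr9 did not. A gene passes that filter more readily when one cell type is high, so counts over tested members are a description. All comparisons with macrophages share the same macrophage sums.

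Tlr2, the lipopeptide receptor, was the most widely detected receptor of the set and had its highest levels in myeloid cells. Macrophages held 296, 260 and 299 CPM, monocytes 331, 288 and 192 CPM, and neutrophils 187, 236 and 220 CPM. Levels were lower in cDC2 (84.3, 127 and 91.7 CPM), in cDC1 (35.0, 0 and 39.5 CPM) and in B cells (2.87, 22.6 and 9.93 CPM). Macrophages and monocytes overlapped, and the lowest macrophage sum lay above the highest neutrophil sum. In the order of levels, neighboring macrophages and monocytes did not differ beyond their spread (log2 0.11, SE 0.22, adjusted p = 0.734), nor did monocytes and neutrophils (adjusted p = 0.242). Neutrophils lay above cDC2 (adjusted p = 0.0022, with 53.8% of all genes called between this pair) and cDC2 above cDC1 (log2 1.77 in size, adjusted p = 0.0131), a call that was lost without mouse 2 (adjusted p = 0.167). Macrophages exceeded neutrophils by log2 0.45 (SE 0.22, adjusted p = 0.0687), which was called when only these 2 cell types were in the fit (log2 0.43, adjusted p = 0.008, with 69.2% of genes called). A Tlr2 UMI was found in 76.1% ± 6.75 of macrophages (SD, n = 3 mice), 50.7% ± 3.04 of neutrophils and 7.0% ± 5.0 of B cells, at median depths of 8598.5, 6570 and 3412 UMIs. After each cell was thinned to 2000 UMIs the shares were 38.3%, 26.6% and 3.18%.

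Tlr1, the partner of Tlr2, followed a narrower pattern. Macrophages held 14.0, 18.9 and 15.9 CPM, and 0 UMIs were counted in neutrophils of any mouse. Macrophages held 91.9% of the 223 Tlr1 UMIs, and only 1 to 3 UMIs were found in each of the B cells, cDC1, cDC2 and monocytes. In the few cDC2 these came to 11.5, 0 and 0 CPM, so that mouse 1 lay near its macrophages. As a description, edgeR without the filter did not call macrophages against cDC2 (log2 1.96, adjusted p = 0.0705). It called them higher than B cells, cDC1 and monocytes. The level was at least 14.6-fold higher in macrophages than in neutrophils, a description without a test, since the gene could pass the filter only through macrophages. In 0 of 555 neutrophils was a Tlr1 UMI found, which allows a share of up to 0.54%, against 11.8% ± 1.55 of macrophages. Both Tlr1 and Tlr2 were detected in the same cell in 8.93% ± 2.67 of macrophages. Tlr1 has a close paralog, Tlr6, and reads shared by both could not be assigned here. Limits behind a count of 0 are on cells with a UMI at this depth, not on cells with the transcript.

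On the TMM scale, Tlr4, the lipopolysaccharide receptor, was held at a like level by macrophages and neutrophils. Macrophages held 25.4, 21.7 and 19.8 CPM and neutrophils 23.5, 27.0 and 16.5 CPM, which overlapped. Monocytes held 2.47, 4.18 and 14.8 CPM, cDC1 held 11.7, 7.33 and 2.82 CPM, and 0 UMIs were counted in B cells. With only these 2 types in the fit, macrophages did not differ from neutrophils beyond the spread (log2 0.09, adjusted p = 0.755), with a pooled ratio of 1.05 (95% counting interval 0.778 to 1.44). As a description, the level in macrophages was at least 7.52-fold that in B cells and 2.09-fold that in monocytes (95% counting interval 1.26 to 3.71). A Tlr4 UMI was found in 15.0% ± 1.5 of macrophages and 9.78% ± 2.37 of neutrophils, and in 0 of 162 B cells, which allows up to 1.85%.

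The co-receptors were less even between macrophages and neutrophils than Tlr4 itself. Cd14, which binds lipopolysaccharide and passes it on, held 6635, 7493 and 6099 CPM in macrophages and 641, 770 and 834 CPM in neutrophils. Monocytes (1819, 1437 and 1233 CPM), cDC2 (1329, 957 and 1428 CPM) and cDC1 (1063, 1598 and 943 CPM) lay between them and overlapped one another. Macrophages stood above each other type in every mouse, by log2 3.20 against neutrophils (SE 0.26, adjusted p = 2.12e-11) and by log2 2.17 against monocytes (adjusted p = 5.95e-08). The neighbors monocytes and cDC2 (adjusted p = 0.531) and cDC2 and cDC1 (adjusted p = 0.939) did not differ beyond their spread. B cells held 54.5, 67.8 and 73.5 CPM, and a Cd14 UMI was found in 34.2% ± 5.29 of them and in 28.9% ± 10.2 of T or NK cells. These lymphocytes should lack the gene, so shares at or below theirs are read as background. A single T or NK cell held 44 of the 73 Cd14 UMIs of its type. In contrast, 99.8% ± 0.197 of macrophages and 76.0% ± 3.06 of neutrophils had one. Thinned to 2000 UMIs, the shares were 97.6% in macrophages, 46.2% in neutrophils, 20.7% in B cells and 6.59% in T or NK cells.

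Ly96, the MD-2 protein that holds the lipid of lipopolysaccharide for Tlr4, was highest in macrophages as well. They held 72.8, 86.1 and 75.8 CPM, against 49.4, 37.6 and 44.4 CPM in monocytes and 18.0, 22.1 and 31.0 CPM in neutrophils. The 3 types did not overlap. Macrophages exceeded neutrophils by log2 1.66 (SE 0.29, adjusted p = 1.04e-05) and monocytes by log2 0.82 (SE 0.29, adjusted p = 0.0261). The latter call was lost without mouse 2 (log2 0.68, adjusted p = 0.0896) and without mouse 3 (log2 0.85, adjusted p = 0.109). Tlr4, Cd14 and Ly96 were detected together in 6.92% ± 0.672 of macrophages, 4.63% ± 4.24 of monocytes and 0.45% ± 0.393 of neutrophils, shares that the low count of Tlr4 bounds.

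**Figure D1:**
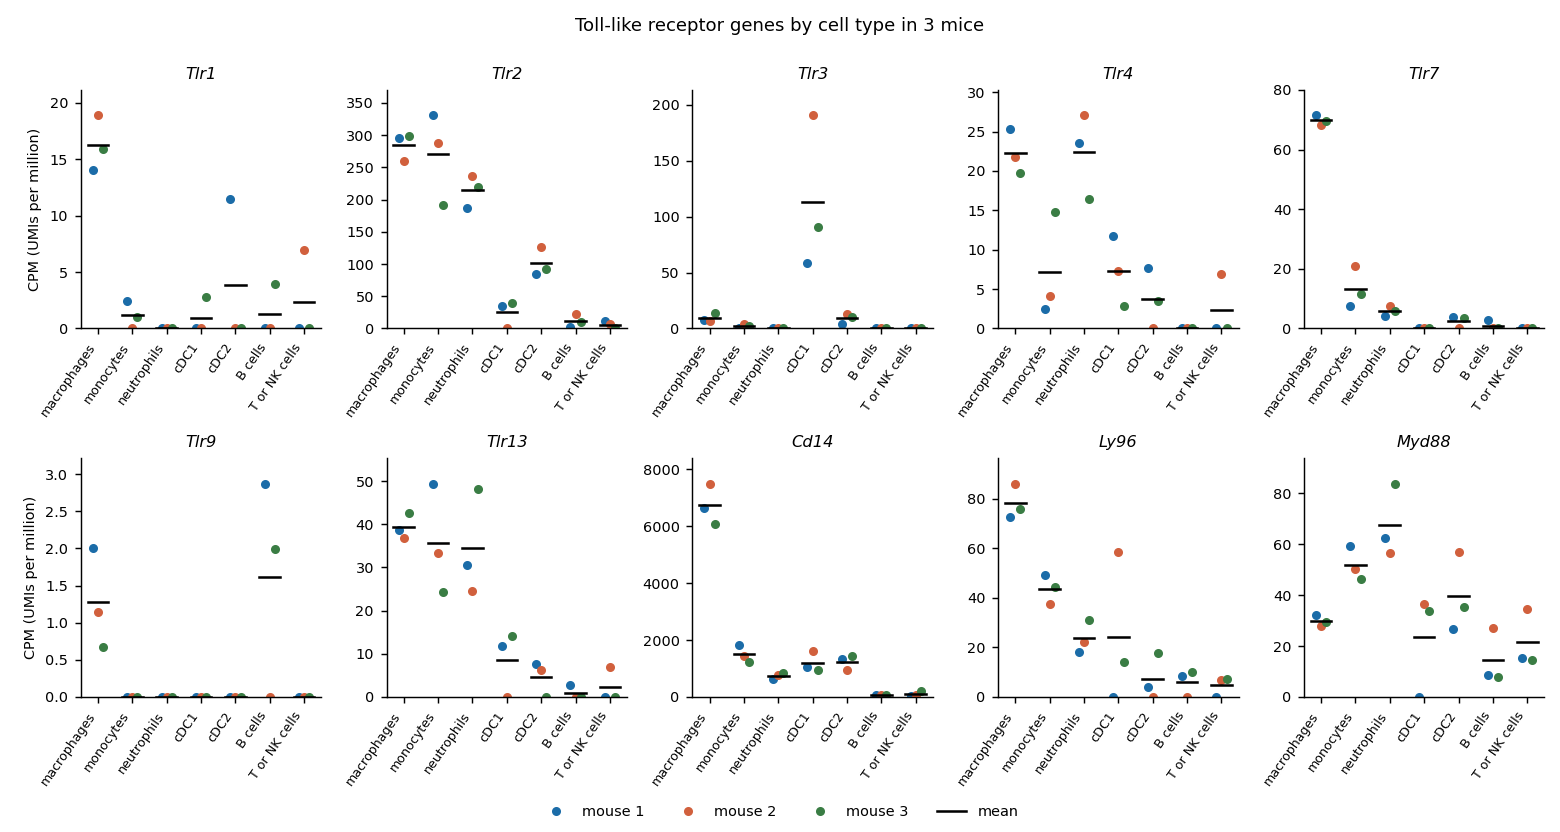
Levels of the 10 genes in CPM (linear y axes, 1 panel per gene with its own scale) by cell type, with 1 point per male mouse and black bars for the means of 3 mice. Tlr3 stands apart in cDC1 (58.4 to 191 CPM), Tlr7 in macrophages (68.4 to 71.4 CPM) and Cd14 in macrophages (6099 to 7493 CPM), while Tlr2 and Tlr13 are shared by macrophages, monocytes and neutrophils.

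Among the endosomal receptors, Tlr3 marked cDC1, the dendritic cells known for taking up dead cells and cross-presenting their antigens. Its levels in cDC1 were 58.4, 191 and 90.4 CPM, against 8.01, 6.87 and 14.3 CPM in macrophages and 3.83, 12.7 and 10.6 CPM in cDC2. The lowest cDC1 sum lay above every sum of the other types. Tlr3 passed the filter on low counts only through the cDC1 sums, so the p-values here are a description. The excess of cDC1 over macrophages was 10.7-fold (macrophages lower by log2 -3.42, SE 0.40, adjusted p = 3.15e-07) and that over cDC2 was log2 3.69 (SE 0.62, adjusted p = 0.000189). A Tlr3 UMI was found in 30 of 44 cDC1 (74.2% ± 13, n = 3 mice), in 7.26% ± 3.80 of macrophages and in 0 of 162 B cells, which allows up to 1.85%. At 2000 UMIs per cell the share of cDC1 was 14.5% ± 13 and that of macrophages 2.16% ± 1.09, and cDC1 were the deepest cells (median 14442.5 UMIs). In female mice, which gave other cells, Tlr3 held 65.7, 140 and 35.7 CPM in cDC1 and 7.92, 8.95 and 11 CPM in macrophages, again without overlap, but did not pass the filter there. Macrophages, which made up most of the cells, still held 62.3% of all Tlr3 UMIs and cDC1 27.6%. A gene on the opposite strand, Gm45542, overlaps Tlr3.

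Tlr7, the receptor for single-stranded RNA, was highest in macrophages and varied little between mice (71.4, 68.4 and 69.6 CPM). Monocytes held 7.40, 20.9 and 11.6 CPM and neutrophils 4.15, 7.38 and 5.93 CPM, and 0 UMIs were counted in the 44 cDC1 and the 86 T or NK cells. No sum of another type reached the macrophage levels. Tlr7 passed the filter on low counts only through the macrophage sums, so the p-values here are a description. The excess of macrophages was log2 2.52 over monocytes (SE 0.30, adjusted p = 2.11e-07), log2 3.62 over neutrophils (SE 0.30, adjusted p = 1.53e-10) and at least 13.3-fold over cDC1 (adjusted p = 1.78e-07). Monocytes, next in order, lay above neutrophils without overlap, a difference that was not called (adjusted p = 0.0555). A Tlr7 UMI was found in 40.3% ± 5.18 of macrophages, 16.5% ± 10.6 of monocytes and 2.01% ± 0.881 of neutrophils, and after thinning in 10.8%, 3.70% and 0.606%.

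Tlr13, which recognizes bacterial 23S ribosomal RNA, was shared by macrophages, monocytes and neutrophils on the TMM scale. Macrophages held 38.7, 36.9 and 42.5 CPM, monocytes 49.4, 33.4 and 24.3 CPM, and neutrophils 30.4, 24.6 and 48.1 CPM. These 3 types overlapped and neighbors in their order did not differ beyond their spread (adjusted p = 0.559 and 0.745). The interval of the difference between macrophages and neutrophils ran from log2 -0.43 to 0.64. Tlr13 passed the filter on low counts only through macrophage and monocyte sums, so the p-values here are a description. Levels in cDC1 (11.7, 0 and 14.1 CPM) and cDC2 (7.66, 6.34 and 0 CPM) lay below. Macrophages exceeded them by log2 1.94 (SE 0.57, adjusted p = 0.00838) and log2 3.18 (SE 0.65, adjusted p = 0.00041). The first of these calls was lost without mouse 2 (log2 1.59, adjusted p = 0.0646). B cells held 1 UMI in all.

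Tlr9, the DNA receptor, was close to the limit of detection. It had 12 UMIs in 1476 macrophages, 2 UMIs in 162 B cells and 0 in the other tested types, and 0 of 555 neutrophils allows a share of up to 0.54%. Macrophages held 2.00, 1.14 and 0.67 CPM and B cells 2.87, 0 and 1.99 CPM. The gene did not pass the filter. Without the filter it was called in none of the comparisons between cell types by edgeR (log2 3.13, adjusted p = 0.136 for macrophages against neutrophils and log2 -0.76, adjusted p = 0.746 against B cells), and a difference was not detectable at these counts.

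Myd88, the adaptor that links the receptors to IRAK kinases, ran opposite to the co-receptors between macrophages and neutrophils. Neutrophils held 62.3, 56.6 and 83.7 CPM, monocytes 59.2, 50.1 and 46.5 CPM, and macrophages 32.0, 28.0 and 29.6 CPM. Each neutrophil and monocyte sum lay above each macrophage sum. Macrophages were lower than neutrophils by log2 -1.21 (SE 0.23, adjusted p = 3.20e-05) and lower than monocytes by log2 -0.78 (SE 0.26, adjusted p = 0.0202). The difference from monocytes was not called without mouse 1 (log2 -0.71, adjusted p = 0.0858), without mouse 2 (log2 -0.76, adjusted p = 0.056) or without mouse 3 (log2 -0.89, adjusted p = 0.091). Dendritic cells overlapped macrophages, with a difference of log2 0.05 from cDC1 (95% interval -0.80 to 0.89, adjusted p = 0.962) and log2 -0.32 from cDC2 (-1.05 to 0.41, adjusted p = 0.575). B cells held 8.61, 27.1 and 7.94 CPM, below macrophages by log2 1.24 (adjusted p = 0.0115), a call lost without mouse 1 (adjusted p = 0.0743) and without mouse 3 (adjusted p = 0.205). In cells thinned to 2000 UMIs, Myd88 was found in 10.0% ± 2.72 of neutrophils and 4.62% ± 1.61 of macrophages. The gene overlaps Slc22a14 on its own strand and Acaa1a on the other, and the effect of these overlaps on its count was not tested.

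Counted over the set, macrophages exceeded neutrophils in 4 of 7 tested members (Cd14, Tlr7, Tlr3 and Ly96) and lay below them in 1 (Myd88), while 68.4% of the 5489 genes tested were called in this comparison (35.3% higher and 33.1% lower in macrophages). Against monocytes the counts were 4 higher and 1 lower, where 39.0% of genes were called (20.1% higher and 18.8% lower). They were 5 higher and 1 lower against cDC1, where 32.2% of genes were called (17.2% and 15.0%). Against cDC2 they were 5 and 0, where 25.8% of genes were called (12.9% in each direction), and against B cells 7 and 0, where 59.8% were called (30.5% and 29.3%). The excess of Tlr3 over monocytes, log2 2.38 (SE 0.79, adjusted p = 0.0192), was lost without mouse 1 (log2 2.08, adjusted p = 0.0625) and without mouse 3 (log2 2.10, adjusted p = 0.31). That of Ly96 over cDC1, log2 1.79 (adjusted p = 0.00279), was lost without mouse 3 (log2 1.19, adjusted p = 0.165). The excess of Tlr3 over B cells, which held 0 UMIs, was at least 4.09-fold and was not called without mouse 3 (adjusted p = 0.0911). Between cDC1 and cDC2, where 11.6% of genes were called (5.99% higher in cDC1 and 5.61% in cDC2), 1 member was higher in cDC1 (Tlr3) and 1 in cDC2 (Tlr2). The median log2 difference of tested members was 1.66 between macrophages and neutrophils and 0.82 between macrophages and monocytes, beside 0.06 and 0.00 over all genes. At least 1 of the 7 receptors was detected in 90.5% ± 3.50 of macrophages, 88.5% ± 1.70 of monocytes, 60.2% ± 4.80 of neutrophils and 10.1% ± 1.82 of B cells.

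**Figure D2:**
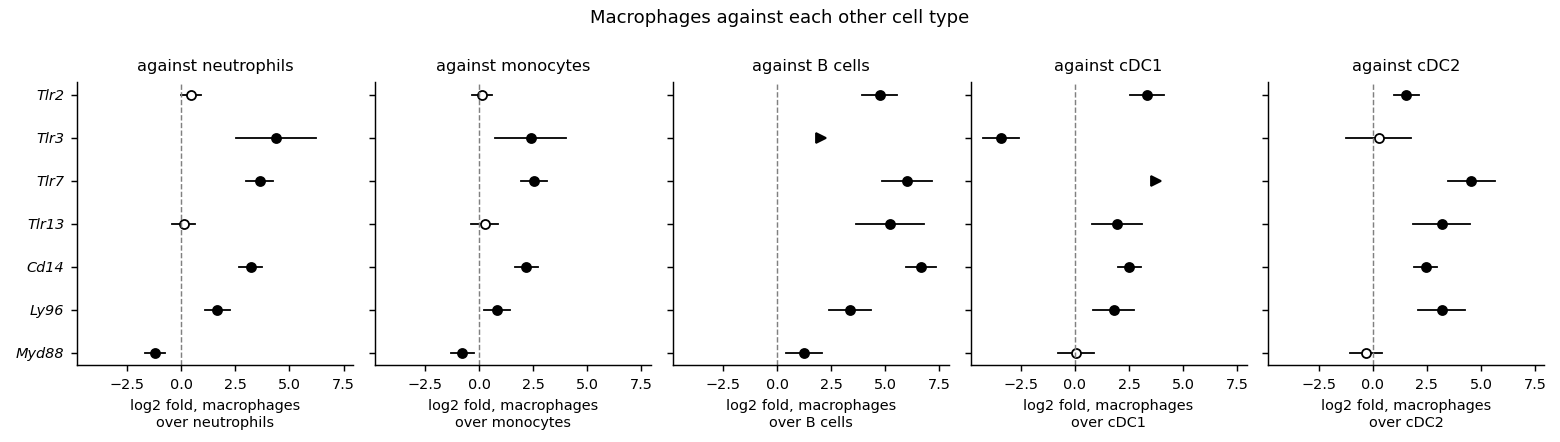
Log2 fold changes of the 7 tested members (rows) in macrophages over each other cell type (x axes), with bars for 95% intervals, filled points for genes called, open points for genes not called and triangles for lower bounds where the other group had 0 UMIs. Cd14 and Tlr7 lie to the macrophage side in each of the 5 panels, and Tlr3 lies to the cDC1 side at log2 -3.42.

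**Figure D3:**
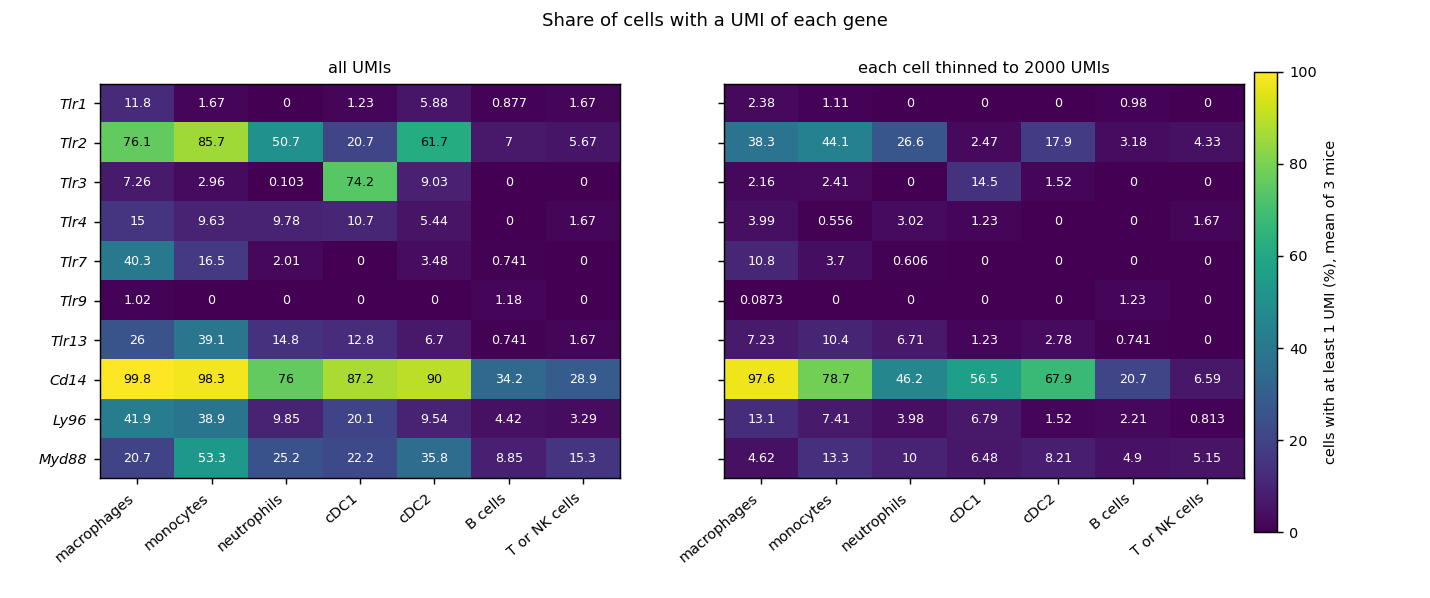
Mean percent of cells with at least 1 UMI of each gene (color scale) by cell type over 3 male mice, from all UMIs and after thinning each cell to 2000 UMIs. The share of cDC1 with Tlr3 goes from 74.2% to 14.5% on thinning, and that of macrophages with Cd14 from 99.8% to 97.6%.

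The female mice, with fewer cells, repeated most of these differences between cell types for the 5 members tested there (Tlr2, Tlr7, Cd14, Ly96 and Myd88). Of these, Tlr7 again passed the filter only through macrophages, and here Ly96 did so too. The calls of these genes in the female mice, and the counts that include them, are therefore a description. Macrophages were higher in Cd14 (log2 3.69), Tlr7 (log2 3.88) and Ly96 (log2 1.32) than neutrophils and lower in Myd88 (log2 -1.43, adjusted p = 0.000611), so that 4 of 5 members were called beside 58.3% of genes. Called were 4 of 5 against B cells (52.9% of genes), 4 against cDC1 (27.0%), 5 against cDC2 (22.4%), 3 against monocytes (27.8%, from 2 mice with 5 and 7 monocytes) and 1, Tlr2, between cDC1 and cDC2 (10.2%). Myd88 was lower in macrophages than in cDC2 (log2 -1.19, adjusted p = 0.0187), a call not made in the male mice, and its difference from monocytes was not called (log2 -0.96, adjusted p = 0.217).

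Within macrophages, Fcrls (an Fc receptor-like gene of resident macrophages) and Ccr2 (the chemokine receptor of monocytes and their recent progeny) divided the cells into 672 with a UMI of Fcrls only, 156 with Ccr2 only, 581 with both and 67 with neither. The median depths of the Fcrls-only and Ccr2-only cells were 8490.5 and 7999.5 UMIs. Of the 10 genes, 8 were tested, 0 were higher in Fcrls-only cells and 1, Tlr2, was higher in Ccr2-only cells, while 7.44% of the 6435 genes tested were called (3.09% higher in Fcrls-only and 4.35% in Ccr2-only cells). DESeq2 also called 0 and 1, and Ly96, Myd88 and Tlr2 had an unadjusted p under 0.05. Tlr2 held 208, 206 and 248 CPM in Fcrls-only and 354, 283 and 360 CPM in Ccr2-only cells, with each mouse higher in the latter and no overlap. Cells with both genes lay between, at 300.2, 274 and 284 CPM. The difference was log2 -0.58 (SE 0.16, adjusted p = 0.0322), and its adjusted p was 0.222, 0.0642 and 0.151 without mouse 1, 2 and 3. In the female mice, where 2 of 7 members and 5.77% of genes were called, it was log2 -0.51 (adjusted p = 0.263), and it was log2 -0.21 (adjusted p = 0.68) in cells thinned to 2000 UMIs before they were put in subsets, which changed the members of each subset too.

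Myd88 lay the same way as Tlr2, at 20.3, 22.4 and 25.1 CPM in Fcrls-only and 50.6, 51.2 and 36.6 CPM in Ccr2-only cells, without overlap. The difference was log2 -0.89 (SE 0.27, adjusted p = 0.0513), which was called with the mouse as replicate block (log2 -0.85, adjusted p = 0.0374). In the female mice Myd88 lay the same way and was not called (log2 -0.95, adjusted p = 0.287). The co-receptors lay the other way. Ly96 held 91.5, 92.8 and 77.0 CPM in Fcrls-only and 16.9, 48.2 and 71.7 CPM in Ccr2-only cells, a difference of log2 0.65 (SE 0.28, adjusted p = 0.192) that was called without mouse 3 (log2 1.34, adjusted p = 0.0263) and in the female mice (log2 1.63, adjusted p = 0.0322). Cd14 held 6058, 7046 and 6180 CPM against 5220, 5564 and 5039 CPM, log2 0.29 (SE 0.14, adjusted p = 0.279), and was called in the female mice (log2 0.74, adjusted p = 0.0181). Neither gene passed the test in the male mice, although both were higher in Fcrls-only cells of 3 of 3 mice.

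Tlr4 held 29.0, 22.4 and 21.9 CPM in Fcrls-only and 0, 18.1 and 15.5 CPM in Ccr2-only cells (log2 0.77, 95% interval -0.15 to 1.69, adjusted p = 0.382). The cells in which Tlr4, Cd14 and Ly96 were all detected made up 9.24% ± 2.16 of Fcrls-only and 1.88% ± 1.79 of Ccr2-only macrophages. The low count of Tlr4 bounds these shares, at 140 UMIs in 672 Fcrls-only and 17 UMIs in 156 Ccr2-only cells. Tlr7 (log2 -0.08, interval -0.55 to 0.39), Tlr13 (log2 -0.01, interval -0.73 to 0.70) and Tlr1 (log2 -0.27, interval -1.07 to 0.54) did not differ beyond their spread, and Tlr3 and Tlr9 did not pass the filter (log2 -0.39, adjusted p = 0.862 and log2 -1.62, adjusted p = 0.734 without it). Beside these values, monocyte markers took 1.34 to 1.51% of UMIs in Fcrls-only and 1.59 to 1.75% in Ccr2-only sums, and genes raised by warm dissociation took 1.41 to 2.38% and 1.06 to 1.19%. Their part in the differences was not tested.

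**Figure D4:**
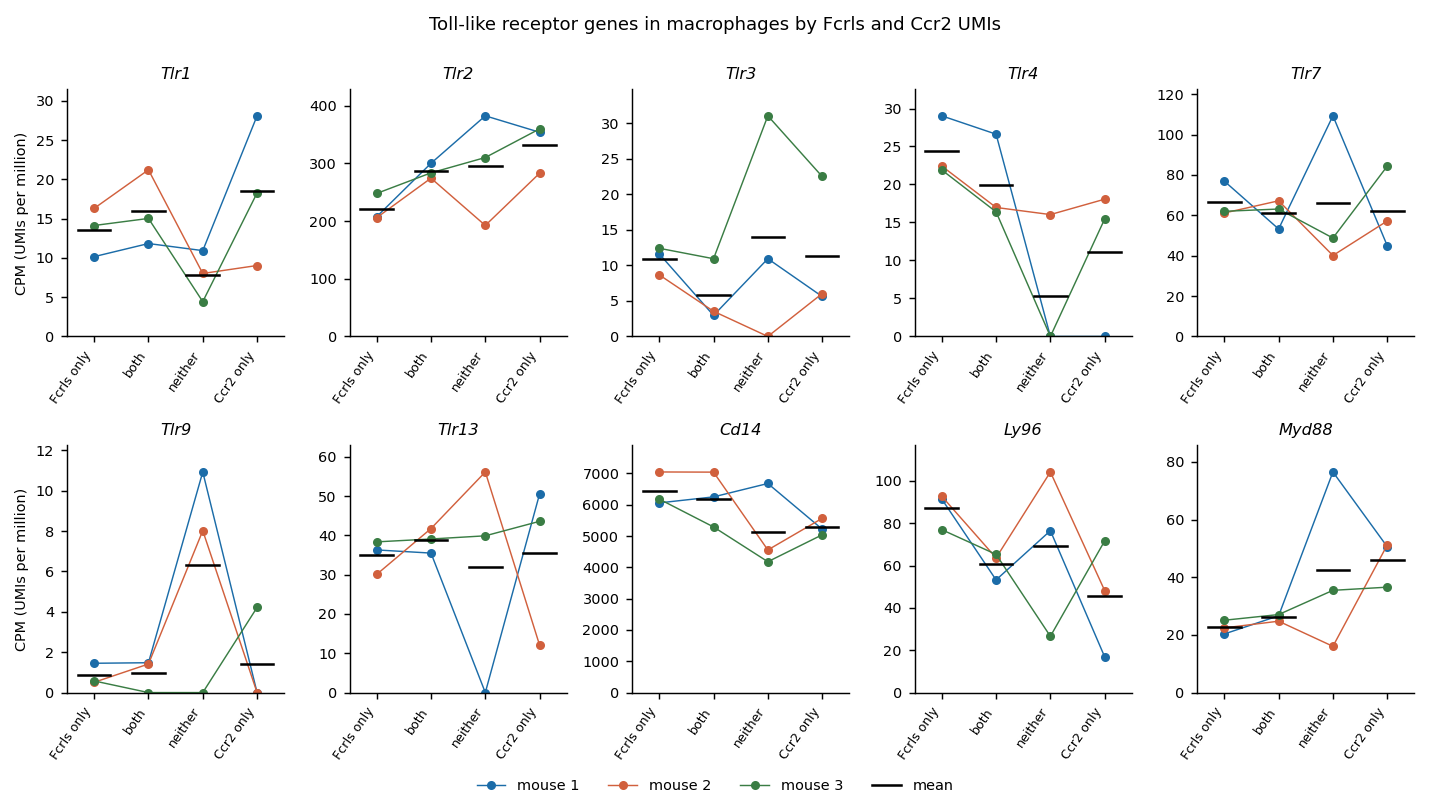
Levels of the members in CPM (linear y axes) by macrophage subset (Fcrls only, both, neither and Ccr2 only), with lines joining the points of a male mouse and black bars for the means. Tlr2 is higher in Ccr2-only (283 to 360 CPM) than in Fcrls-only macrophages (206 to 248 CPM), and the 3 Ly96 values of Fcrls-only cells (77.0 to 92.8 CPM) lie above those of Ccr2-only cells.

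Neutrophils store antimicrobial proteins in granules, and the genes of the secondary granules (Camp, Ltf and Ngp) are expressed in less mature cells. A split of the neutrophils at 2% of UMIs from these genes gave 254 granule-high and 301 granule-low cells, with median depths of 11850.5 and 3801 UMIs. Of the 10 genes, 6 were tested and 6 were higher in CPM in granule-low cells, where 45.7% of the 4202 genes tested were called (24.5% in that direction and 21.2% in the other). Tlr4, Tlr13 and Ly96 were low in granule-high cells and passed the filter through the granule-low sums. This count and the p-values of these 3 genes are therefore a description. Tlr2 showed the largest difference, with 336, 364 and 281 CPM in granule-low and 32.4, 35.7 and 55.2 CPM in granule-high cells (log2 2.89, SE 0.21, adjusted p = 7.06e-08). Tlr13 held 50.3, 22.7 and 55.2 CPM against 6.95, 11.2 and 14.9 CPM (log2 1.98, SE 0.35, adjusted p = 0.000239). Ly96 held 34.6, 18.2 and 42.0 CPM against 2.32, 11.2 and 6.62 CPM (log2 2.51, SE 0.43, adjusted p = 0.000213). In none of these 3 genes did the groups overlap. Myd88 held 84.8, 54.6 and 76.7 CPM against 20.9, 24.6 and 34.8 CPM (log2 1.39, SE 0.26, adjusted p = 0.000408), again without overlap.

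For the remaining pair, the call was lost when 1 mouse was left out, with the fold in the same direction. Tlr4 was higher in granule-low cells by log2 1.57 (SE 0.43, adjusted p = 0.00738), a call lost without mouse 1 (log2 1.4, adjusted p = 0.071). Cd14 was higher by log2 0.63 (SE 0.15, adjusted p = 0.00361), a call lost without mouse 3 (log2 0.46, adjusted p = 0.0618). Since granule-high cells held more UMIs in all, the share of cells with a UMI went along with the CPM in only some genes. It was 62.7% ± 2.94 of granule-low and 35.8% ± 5.09 of granule-high cells for Tlr2, but 65.3% ± 1.20 and 89.0% ± 4.20 for Cd14, 24.2% and 26.4% for Myd88 and 9.37% and 10.4% for Tlr4. Thinned to 2000 UMIs, 45.3% ± 4.47 of granule-low and 6.47% ± 1.33 of granule-high cells had a Tlr2 UMI, and for Cd14 the shares were 48.9% and 43.3%. Tlr1, Tlr3, Tlr7 and Tlr9 had 0, 1, 6 and 0 UMIs in granule-low cells and did not pass the filter, without which Tlr3 (log2 2.39, adjusted p = 0.452) and Tlr7 (log2 0.48, adjusted p = 0.754) were not called. Genes raised by warm dissociation took 0.528 to 0.831% of UMIs in granule-low and 0.110 to 0.147% in granule-high sums, and macrophage markers 0.0067 to 0.0114% and 0.0020 to 0.0079%. Their part was not tested. In the female mice, 2 of the 10 genes were tested and Tlr2 was called again (log2 2.04, adjusted p = 0.00192) beside 24.3% of genes, while Cd14 differed by log2 0.00 (adjusted p = 0.999).

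**Figure D5:**
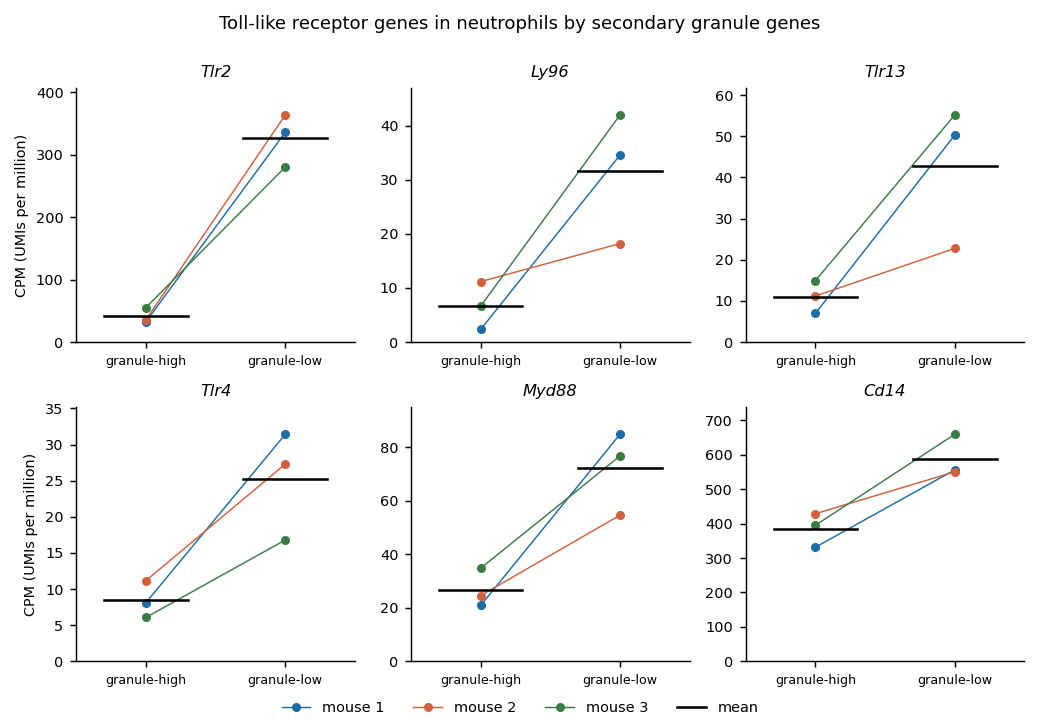
Levels of the 6 tested members in CPM (linear y axes) in granule-high and granule-low neutrophils, with lines joining the points of a male mouse and black bars for the means. The line of each mouse rises in all 6 panels, for Tlr2 from 32.4 to 55.2 CPM in granule-high to 281 to 364 CPM in granule-low cells.

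Macrophages with a high level of interferon-stimulated genes (Isg15, Ifit1, Ifit2, Ifit3 and Rsad2 at or over 0.1% of UMIs) were few, at 66 of 1476 cells. Mouse 1 had 3 of them and was left out of this group, so 2 mice stood against 3. Of 9 tested members, 1 was called (Tlr3), beside 2.94% of 8335 genes (2.86% higher and 0.084% lower in the interferon-high cells). Tlr3, itself known as an interferon-inducible receptor, held 8.28 and 71.1 CPM in the interferon-high cells of mouse 2 and 3, against 7.41, 6.06 and 10.2 CPM in the others. The value of mouse 2 lay within the range of the interferon-low cells, and the difference (log2 2.67, SE 0.50, adjusted p = 0.00662) fell to log2 0.29 without mouse 3 (adjusted p = 0.963). Myd88 held 24.9 and 68.5 CPM against 29.6, 25.0 and 25.1 CPM (log2 1.11, SE 0.34, adjusted p = 0.141), and was called without mouse 2 (log2 1.36, adjusted p = 0.00203). Without mouse 2 or mouse 3 the interferon-high group is 1 mouse, assumed to vary like the interferon-low sums. Both results rest on the 47 interferon-high cells of mouse 3.

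Macrophages of 3 female and 3 male mice were compared because Tlr7 and Tlr13 are X-linked in the mouse. Tlr7 held 87.9, 69.0 and 62.2 CPM in female and 65.6, 62.2 and 64.3 CPM in male mice, which overlapped (log2 0.19, 95% interval -0.09 to 0.48, adjusted p = 0.939). Tlr13 held 39.3, 41.4 and 42.7 CPM against 35.6, 33.6 and 39.3 CPM, which did not overlap although the nearest values were almost equal (log2 0.17, interval -0.12 to 0.47, adjusted p = 0.959). Of 9 tested members, 0 were called by edgeR or by DESeq2 and 0 had an unadjusted p under 0.05, where 0.0863% of 8112 genes were called (0.0493% higher in female and 0.037% in male mice). The widest interval among the tested members, that of Tlr3, ran from log2 -0.86 to 0.55. The comparisons of cell types, subsets and the neutrophil split were also tested by edgeR for a difference between the sexes. Of 139 such tests on members 0 were called, with the smallest adjusted p at 0.502, and 7 had an unadjusted p under 0.05. Over all genes, the most called in any of these comparisons was 11 of 5740, between monocytes and T or NK cells. The 0 members called therefore lie near the share over all genes.

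The wider TLR pathway was given by lists of its other genes. In macrophages against neutrophils, 2 of 2 tested receptor genes were higher in macrophages, Ly86 (log2 5.00) and Cd180 (log2 4.77), which form an MD-1 and RP105 complex related to that of Tlr4. Of the 8 genes for trafficking and ligand loading 7 were higher in macrophages, among them Unc93b1, the escort of endosomal TLRs (log2 2.25, adjusted p = 1.80e-11), and Lgmn, an endosomal protease (log2 5.45), while Lbp, which delivers lipopolysaccharide to Cd14, was lower (log2 -7.82, adjusted p = 2.56e-14). Beside 35.3% of all genes higher and 33.1% lower in macrophages, of 5 tested adaptors and kinases 4 were higher and 1 lower, of 3 brakes 1 and 1, of 5 transcription factors 3 and 0, and of 10 response genes 8 and 1. The medians of the trafficking and response lists were log2 1.47 and 1.96, beside 0.06 over all genes. Genes raised by warm dissociation took 1.22 to 1.97% of UMIs in macrophages and 0.214 to 0.347% in neutrophils. Their part in these differences was not tested.

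Between macrophage subsets few pathway genes passed the test. Lgmn was higher in Fcrls-only cells (log2 0.65, adjusted p = 0.000932). Higher in Ccr2-only cells were the endosomal transporters Slc15a4 (log2 -0.84, adjusted p = 0.0414) and Slc15a3 (log2 -0.58, adjusted p = 0.0301), the adaptor Ticam2 (log2 -1.12, adjusted p = 0.0263), the transcription factor Irf5 (log2 -0.76, adjusted p = 0.0114) and the cytokine Tnf (log2 -1.29, adjusted p = 3.92e-05). Beside 7.44% of all genes, the counts were 0 of 3 receptors, 3 of 7 trafficking genes, 1 of 9 adaptors and kinases, 0 of 4 brakes, 1 of 5 transcription factors and 1 of 9 response genes. At an unadjusted p under 0.05 there was 1 receptor and 1 brake, and DESeq2 called 0 of either. The calls of Slc15a3 and Ticam2 were lost without any single mouse (adjusted p of 0.056 to 0.297 and of 0.0517 to 0.28). Those of Slc15a4 were lost without mouse 1 (0.126) and mouse 3 (0.52), and those of Irf5 without mouse 2 (0.0835) and mouse 3 (0.0793). In the female mice Tnf was called again (log2 -1.01, adjusted p = 0.0381). Lgmn (log2 0.54, adjusted p = 0.0597), Slc15a3 (0.326), Ticam2 (0.91), Irf5 (0.324) and Slc15a4 (0.914, with the sign changed) were not. Thinning to 2000 UMIs ended the calls of Tnf (log2 -0.45, adjusted p = 0.343), Slc15a3 (0.446) and Irf5 (0.133).

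In neutrophils, all 8 tested response genes were higher in granule-low cells, with Il1b (log2 4.82) and Ptgs2 (log2 4.58) among the largest, and their median was log2 3.34 beside 0.02 over all genes. Brakes on TLR signaling, Tnfaip3 (log2 3.00) and Nfkbia (log2 2.34), the kinase Irak2 (log2 1.99), the transcription factor Irf5 (log2 3.11) and the transporter Slc15a3 (log2 3.21) were higher in granule-low cells too, and Lbp was lower (log2 -3.62). By list, these were 1 of 1 receptor, 2 higher and 2 lower of 6 trafficking genes, 2 of 7 adaptors and kinases, 2 of 5 brakes and 2 of 4 transcription factors, beside 24.5% of all genes higher and 21.2% lower. A gene passes the filter on low counts more readily when either group is high. Counts over the tested genes of these lists, here and above, are therefore a description. Several response genes are also raised by dissociation, and that part was not tested. In interferon-high macrophages, 0 of 5 receptors, 7 trafficking genes, 14 adaptors and kinases and 5 brakes were called, beside 2.94% of all genes. At an unadjusted p under 0.05 there was 1 of each, and DESeq2 called 0. Irf7 (log2 3.27, adjusted p = 1.51e-05) and Cxcl10 (log2 4.92, adjusted p = 1.97e-07) were higher. These cells were split by interferon-stimulated genes in the same data, and the study names Irf7 in its interferon cluster. The p-values of both genes are therefore a description. Between the sexes 0 genes of any list were called by edgeR or DESeq2.

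The genes most like each member were found by Pearson's r of log2 CPM over the 21 sums of mouse and cell type, among 5489 genes. These sums share mice, a lane and strong differences between cell types, so r is a description. Closest to Tlr2 were Aaed1 (0.947), Cybb (0.914) and Clec4a2 (0.903), and closest to Tlr3 were Havcr2 (0.973), Cyb5a (0.965) and Slamf8 (0.942). Tlr7 was nearest to Cxcl1 (0.930), Cxcl2 (0.908) and Ntpcr (0.907), and Tlr13 to Pla2g7 (0.862), Xdh (0.838) and Rnpep (0.838). Cd14 was nearest to Laptm4a (0.958), Cd68 (0.955) and Asah1 (0.954), Myd88 to Myo9b (0.908), Gla (0.905) and Ugp2 (0.884), and Ly96, with the lowest values, to Parp14 (0.803), Slc11a1 (0.799) and Slc39a7 (0.798). No pair of members was among these.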

How the data were processed

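Gene expression and hashtag libraries of CD45+ DRG cells were sequenced together from a single lane of the 10x 3′ v3 assay. The authors deposited raw UMI counts, not normalized, for 4395 barcodes with the counts of 6 hashtags, and counts of filtered cells over 16819 symbols. The submitters' processing notes name Cell Ranger 3.1.0, Seurat and mm10. HTODemux (Seurat 5.3.0, R 4.3.3) on all barcodes, then the filters of the study (over 200 and under 5000 genes, under 5% mitochondrial UMIs), left 3741 cells with 1 hashtag, 269 doublets and 101 negatives. Those with a male hashtag were the deposited cells, and 0 entries differed. Each hashtag was taken as a mouse, with the key of hashtags to sexes as deposited.

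UMI counts were summed per mouse and group (at least 5 cells) and tested with edgeR 4.0.16 (quasi-likelihood, TMM, filterByExpr, Benjamini-Hochberg adjustment, threshold 0.05), after the script had been tested on simulated data. All cell types shared a fit, as did the 4 macrophage subsets. DESeq2 1.42.0 was an alternative. Cells in more than 1 gate (38) or in none (140) were left out, and Scrublet (scanpy 1.11.5) marked 11 of 3741 cells. Same-numbered sums come from the same animal, and their deviations from group means correlated at 0.114, 0.122 and 0.0468 (mouse 1, 2 and 3) over cell types and at 0.0895, 0.313 and 0.381 over macrophage subsets. Lower limits on folds rest on 3 counts over the pooled group, the limit behind a count of 0 on 3 cells of the total. Intervals of ratios are exact and limits cover counting error only.

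Named were all 10 members, up to 3 called genes per pathway list and direction with the largest folds, and the 3 genes nearest to each member. Members and lists were chosen with earlier results of these data known. Gene positions are those of GRCm38. Protein sequences were not used here, nor were the promoters of Cd14, Tlr4, Tlr7 and Ly96.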

Additional observations from a re-analysis of the deposited data

How the results depend on the processing

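The p-values rest on the spread of sums within groups, estimated over all groups of a fit. Sums of the same mouse were treated as independent, except with the mouse as replicate block. Groups of the male mice held 3 mice, but the interferon-high macrophages held 2. Rare genes, Tlr9 above all, were limited by depth. The chosen alternatives changed scaling, tool, filter, gates, cells, mice and depth, and the fits of only both groups and of the female neutrophils were added after the data were seen. Across all results, 985 values kept direction and side of the threshold, 45 lost a call, 8 gained one and 30 changed sign (1 of which, Slc15a4, lost its call too), and the cause was not tested. The mouse as replicate block raised the members called between macrophage subsets to 2, by Myd88, and the genes called there to 710 from 479, and changed no other call of a member.

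In the female mice the members called were 2 between subsets, 4 against B cells, 3 against monocytes, 1 between cDC1 and cDC2 and 1 in the neutrophil split, and the genes called were 265 between subsets, 2418 against neutrophils, 1120 against cDC1, 928 against cDC2, 424 between cDC1 and cDC2, 1152 against monocytes and 386 in the neutrophil split. There, log2 differences changed sign for Tlr13 (0.046) and Slc15a4 (0.17) between subsets, for Myd88 against cDC1 (-0.81) and for Ly96 between cDC1 and cDC2 (-1.55). Thinning to 2000 UMIs, which also redrew the subsets, left 0 members and 169 genes called between subsets, with Tlr7 at 0.021 and Tlr13 at 0.19. A rule of at least 2 UMIs called 2 members there. Without the filter on low counts, 6667 genes were called against neutrophils (6097 with only both groups in the fit), 382 in the interferon split and 104 between the sexes, Tlr13 between subsets was at 0.037, and the median of all genes moved by over 0.1. In the interferon split Tlr2 was at 0.0068 with DESeq2 size factors and 0.11 with the split at 0.05%. Cd14 between cDC1 and cDC2 was at 0.069 without Scrublet cells, and Tlr3 against cDC2 at -0.00319 with stricter gates, which also ended the call of Tlr3 against monocytes (adjusted p = 0.0502).

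Leaving out 1 mouse gave 0 to 1 members called between subsets, 1 to 2 between cDC1 and cDC2, 4 to 7 against B cells, 2 to 3 against monocytes, 0 to 2 in the interferon split and 3 to 6 in the neutrophil split. Genes called ranged from 200 to 279 between subsets, 281 to 460 between cDC1 and cDC2, 1110 to 1680 against cDC1, 941 to 1137 against cDC2, 1393 to 1942 against monocytes, 28 to 585 in the interferon split and 5 to 72 between the sexes. Differences that changed sign ranged, between subsets, from -0.27 to 0.33 (Tlr13) and -0.27 to 0.36 (Tlr7), against neutrophils from -0.012 to 0.0030 (Tlr13), against monocytes from -0.15 to 0.29 (Tlr2), against cDC1 from -0.25 to 0.43 (Myd88), against cDC2 from -0.023 to 0.71 (Tlr3) and between cDC1 and cDC2 from -0.50 to 0.22 (Cd14). In the interferon split they were -0.37 to 0.12 (Cd14), -0.15 to 1.36 (Myd88), -0.10 to 1.96 (Tlr1), -0.96 to 0.28 (Tlr2) and -0.37 to 0.71 (Tlr7), and between the sexes -0.027 to 0.24 (Cd14), -0.12 to 0.023 (Ly96), -0.088 to 0.20 (Tlr2) and -0.40 to 0.40 (Tlr3). Without mouse 3, Tlr13 did not pass the filter across cell types. Its range against neutrophils therefore covers only the fits without mouse 1 and without mouse 2.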
